A study of Mus musculus with 8 samples.

Results

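Tubulin genes encode the alpha and beta subunits of microtubules, and stathmin, encoded by Stmn1, binds the free subunits. The set comprised 10 genes chosen by name, 4 alpha tubulin genes (Tuba1a, Tuba1b, Tuba1c, Tuba4a), 5 beta tubulin genes (Tubb2a, Tubb2b, Tubb4b, Tubb5, Tubb6) and Stmn1, among 19937 genes measured in all. The genes were listed by name and not by a threshold on their values, with earlier results of these data known. A gene was read from the brightest of the probe sets annotated to its symbol and to no other, and 7 of the 10 had such a probe set. Tuba1b, Tuba1c and Tubb4b were represented only on probe sets shared with another gene and have no value of their own.

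Affymetrix mouse gene arrays were hybridised with RNA from 4 normal control livers and 4 MYC-driven tumours of the liver, 1 array for each sample. According to the labels, human c-MYC was overexpressed in the liver from the CEBPB-LAP promoter under doxycycline control, the tumours were taken once mice had reached the humane endpoint, and the controls were livers of matched mice. Whether the control mice carried the transgene or received doxycycline, the age and strain of the mice, and whether each sample came from its own mouse are not stated in the labels. The p-values therefore reflect the spread among these samples, which may be partly technical. The comparison asks whether the tubulin and stathmin genes are expressed differently in the tumours.

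Alpha and beta tubulin pair into heterodimers that polymerise into microtubules, which carry cargo in resting cells and form the spindle when cells divide. The isotypes are encoded by separate genes and differ mainly in their C-terminal tails, where most modifications are placed. Stathmin sequesters heterodimers and promotes the shrinking of microtubule ends, and it is switched off by phosphorylation as cells enter mitosis. Tubb5 is the beta tubulin of most dividing cells, Tubb2a and Tubb2b are close relatives best known from neurons, and Tuba1a is best known from the developing brain.

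Windows around the transcription start are shown for the 3 genes that passed the test below and had an entry in the RefSeq promoter table (GRCm38.p6). Each runs 5′ to 3′ on the strand of the gene, from 250 bases before the start to 50 after it. Capitals mark CACGTG (the E-box bound by MYC with MAX), CCAAT (the box bound by NF-Y) or TTTGAA (the cell cycle homology element), searched on both strands, and none of these 3 motifs overlaps another here.
Tubb5, chr17:35838252-35838551, minus strand: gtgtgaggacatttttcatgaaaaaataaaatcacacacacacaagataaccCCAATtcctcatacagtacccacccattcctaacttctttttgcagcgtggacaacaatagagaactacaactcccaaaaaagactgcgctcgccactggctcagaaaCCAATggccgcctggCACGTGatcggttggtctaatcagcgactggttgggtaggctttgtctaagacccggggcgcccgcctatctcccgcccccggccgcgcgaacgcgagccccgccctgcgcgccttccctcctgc
Tuba1a, chr15:98953452-98953751, minus strand: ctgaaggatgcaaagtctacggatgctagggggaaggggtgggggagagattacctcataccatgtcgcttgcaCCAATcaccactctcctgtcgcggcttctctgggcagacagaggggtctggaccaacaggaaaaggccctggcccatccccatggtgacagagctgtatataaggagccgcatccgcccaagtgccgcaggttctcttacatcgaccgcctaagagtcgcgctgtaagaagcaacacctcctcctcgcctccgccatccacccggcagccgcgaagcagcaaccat
Tubb2a, chr13:34077959-34078258, minus strand: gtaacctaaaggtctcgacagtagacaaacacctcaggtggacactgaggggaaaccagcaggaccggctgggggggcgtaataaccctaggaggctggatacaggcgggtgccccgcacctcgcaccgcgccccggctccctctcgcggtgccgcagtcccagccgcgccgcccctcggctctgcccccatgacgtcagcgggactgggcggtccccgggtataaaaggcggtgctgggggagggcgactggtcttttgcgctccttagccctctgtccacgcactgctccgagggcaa
The Tubb5 window held CACGTG 75 bases before the start and CCAAT 90 and 198 bases before it. The Tuba1a window held CCAAT 176 bases before the start and no E-box. The Tubb2a window held none of the 3 motifs and is printed in lower case throughout. Of the 7 genes of the set with a window (Tuba1a, Tuba1b, Tuba1c, Tuba4a, Tubb2a, Tubb4b and Tubb5), Tubb5 was the 1 with an E-box, against 7.15% of all 32851 windows in the table. CCAAT was found in 4 of the 7 windows (Tuba1a, Tuba1c, Tubb4b and Tubb5, with 5 copies in Tubb4b), against 37.4% of all windows. TTTGAA was found in the Tubb4b window, against 17.9% of all windows. These matches describe letters and are not evidence of binding. Tubb2b, Tubb6 and Stmn1 were not in the table.

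Among the 7 genes with a value, Stmn1, Tubb5, Tubb6 and Tuba1a were higher in the tumours, Tubb2a was lower, and Tuba4a and Tubb2b did not pass the test. The test was limma's moderated comparison of log2 values, with p-values adjusted (Benjamini-Hochberg) across the 19937 genes and called at 0.05. By this rule 16.2% of all genes were higher in tumours and 12.7% were lower. The calls of Tuba1a and Tubb2a were lost when some single arrays were left out. The median log2 change (tumours minus controls) of the 7 genes was 0.76, and that of all genes was -0.035. All 4 tumours lay above all 4 controls for Stmn1, Tubb5 and Tubb6, which was the case for 16.3% of all genes. Hybridisation to bulk RNA cannot tell fewer cells of a type from less RNA per cell.

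**Figure D1:**
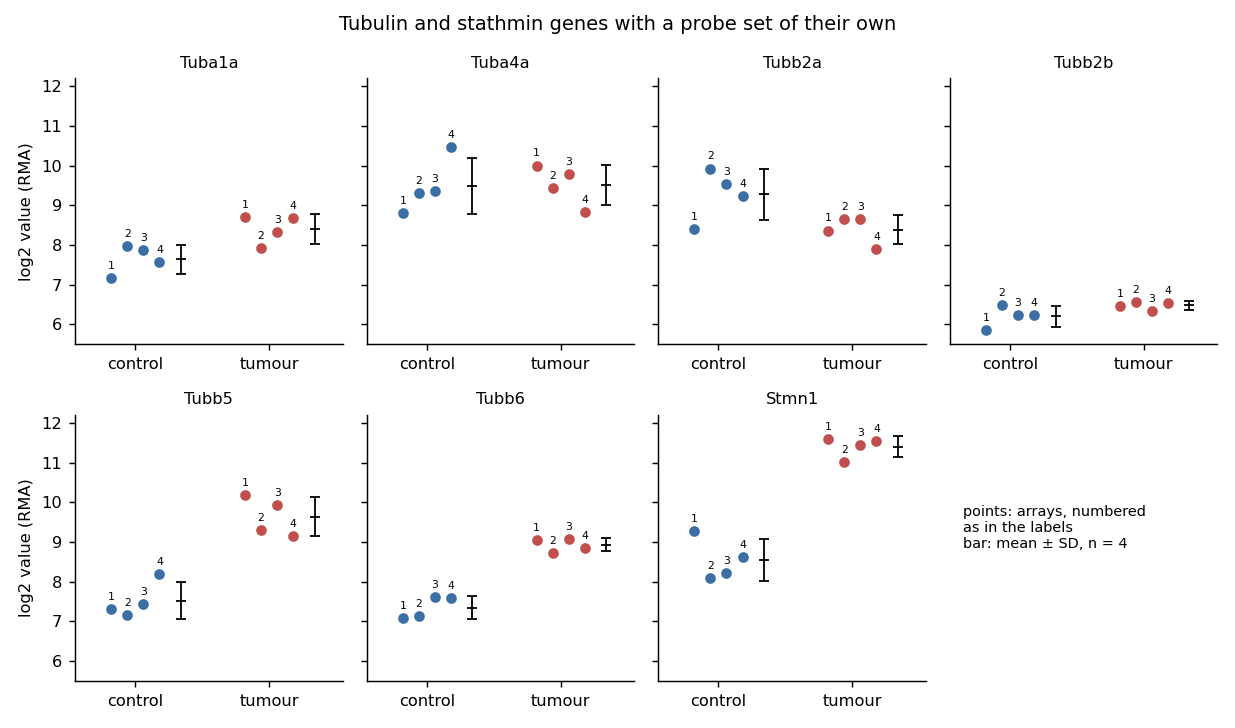
Log2 values of the 7 genes with a probe set of their own, for 4 control livers (blue) and 4 tumours (red), with points numbered as in the labels and bars giving the mean ± SD of 4 arrays. The tumours lay above all controls for Tubb5, Tubb6 and Stmn1 and overlapped with them for Tuba1a, Tuba4a, Tubb2a and Tubb2b. Heights of different genes are not comparable, since they come from different probes.

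Stmn1 showed the largest change of the set. It read 9.27, 8.09, 8.23 and 8.62 on the log2 scale in control livers 1 to 4, and 11.60, 11.03, 11.45 and 11.55 in tumours 1 to 4. The highest control, liver 1, lay below the lowest tumour, tumour 2, by more than the spread within either group. The mean rose 7.24-fold, from 8.55 ± 0.53 to 11.41 ± 0.26 (± SD over 4 arrays each; limma SE 0.24 on a log2 change of 2.86, limma adjusted p = 9.3e-06). The other stathmin family genes Stmn2, Stmn3 and Stmn4, best known from neurons, gave 0 of 3 past the threshold. The largest change among them was that of Stmn4, at -0.15 (SE 0.13, adjusted p = 0.470 in limma).

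Tubb5, the general beta tubulin, had the largest change among the tubulin genes. Its log2 values were 7.30, 7.17, 7.43 and 8.20 in control livers 1 to 4, and 10.19, 9.30, 9.92 and 9.15 in tumours 1 to 4. Control liver 4 stood above the other controls and still lay below every tumour. The mean rose 4.33-fold, from 7.52 ± 0.46 to 9.64 ± 0.50 (± SD over 4 arrays each; limma SE 0.27 on a log2 change of 2.12, limma adjusted p = 0.000177).

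Tubb6, a beta tubulin with a more divergent sequence, had the smallest SE of the 4 genes that rose. It read 7.07, 7.13, 7.61 and 7.58 in control livers 1 to 4 and 9.06, 8.73, 9.07 and 8.85 in tumours 1 to 4, so the groups were apart by more than 1 log2 unit. The mean rose 2.99-fold, from 7.35 ± 0.29 to 8.93 ± 0.16 (± SD over 4 arrays each; limma SE 0.15 on a log2 change of 1.58, limma adjusted p = 2.1e-05).

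Tubb2a went the other way. Its log2 values were 8.40, 9.93, 9.55 and 9.23 in control livers 1 to 4 and 8.37, 8.65, 8.65 and 7.90 in tumours 1 to 4. Control liver 1 lay inside the range of the tumours, so the groups overlapped, while the other 3 controls lay above every tumour. The mean fell from 9.28 ± 0.65 to 8.39 ± 0.35 (± SD over 4 arrays each; limma SE 0.30 on a log2 change of -0.89, limma adjusted p = 0.0460), a 1.85-fold difference. The adjusted p stood close to the threshold. Leaving out control liver 2, 3 or 4 or any 1 of the 4 tumours ended the call (adjusted p between 0.0562 and 0.123 in limma). So did median centring (0.0589), an intensity trend with robust variance (0.0559) and testing every probe set (limma adjusted p = 0.0763). Without control liver 1 the log2 change was -1.18 (limma adjusted p = 0.00283).

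Its close relative Tubb2b read near the array medians, which lay between 6.33 and 6.44. The values were 5.86, 6.50, 6.23 and 6.23 in control livers 1 to 4 and 6.47, 6.56, 6.34 and 6.55 in tumours 1 to 4, and the groups overlapped. The log2 change was 0.27 (SE 0.13, 95% interval -0.02 to 0.57, limma adjusted p = 0.168). A further probe set, annotated to Tubb2a, Tubb2b and the pseudogene Tubb2a-ps2 together, read 5.85 to 6.30 in controls and 6.01 to 6.64 in tumours. Its log2 change was 0.17 (SE 0.17, limma adjusted p = 0.532 over all probe sets). A transcript of either gene could reach a probe of the other where their sequences match, and to what extent that happened here was not tested.

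For Tuba1a the log2 values were 7.16, 7.97, 7.87 and 7.57 in control livers 1 to 4 and 8.70, 7.91, 8.32 and 8.68 in tumours 1 to 4. Tumour 2 lay within the range of the controls, and the other 3 tumours lay above it. The mean rose 1.69-fold, from 7.64 ± 0.36 to 8.40 ± 0.37 (± SD over 4 arrays each; limma SE 0.21 on a log2 change of 0.76, limma adjusted p = 0.0211). Leaving out control liver 1 ended the call (limma adjusted p = 0.0504), as did leaving out tumour 1 (0.0638) or tumour 4 (0.0588).

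Tuba4a, an alpha tubulin whose gene does not encode the C-terminal tyrosine found in most others, showed no detectable difference at this number of arrays. It read 8.81, 9.30, 9.35 and 10.48 in control livers 1 to 4 and 10.005, 9.43, 9.80 and 8.84 in tumours 1 to 4. Control liver 4 was the highest of all 8 arrays and control liver 1 the lowest, with tumour 4 next to it. The log2 change was 0.03 (SE 0.34), with a 95% interval from -0.73 to 0.80 (limma adjusted p = 0.961), which leaves room for changes of the size seen for Tuba1a.

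The 3 genes without a probe set of their own were covered by 6 shared probe sets, none of which can be assigned to 1 gene. Their p-values come from a fit of all 34760 probe sets, in which 13.1% were higher and 9.37% lower in tumours. The probe set annotated to Tuba1b and Tuba1c read 7.68, 8.27, 8.43 and 9.05 in control livers 1 to 4 and 11.07, 9.70, 10.43 and 9.59 in tumours 1 to 4. All tumours lay above all controls, and the log2 change was 1.84 (SE 0.37, limma adjusted p = 0.00641). Tuba1b encodes an alpha tubulin found in most dividing cells.

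Another 3 probe sets carried the symbols Tuba1a, Tuba1b and Tuba1c together, and they did not change alike. The first went from between 9.13 and 9.67 in controls to between 10.65 and 11.44 in tumours (log2 change 1.61, SE 0.19, limma adjusted p = 0.000293). The second went from between 9.24 and 10.04 to between 10.81 and 11.21 (log2 change 1.17, SE 0.19, limma adjusted p = 0.00183). The third read 8.29 to 8.58 in controls and 8.11 to 8.505 in tumours and did not pass (log2 change -0.08, SE 0.12, limma adjusted p = 0.693). Of the 4 shared Tuba1 probe sets, 3 therefore passed the threshold and were higher in tumours, against 13.1% of all probe sets. All 3 carry the symbols Tuba1b and Tuba1c, so they may read the same transcripts and are not independent. Tuba1a, Tuba1b and Tuba1c lie near each other on chromosome 15 in the RefSeq table.

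**Figure D2:**
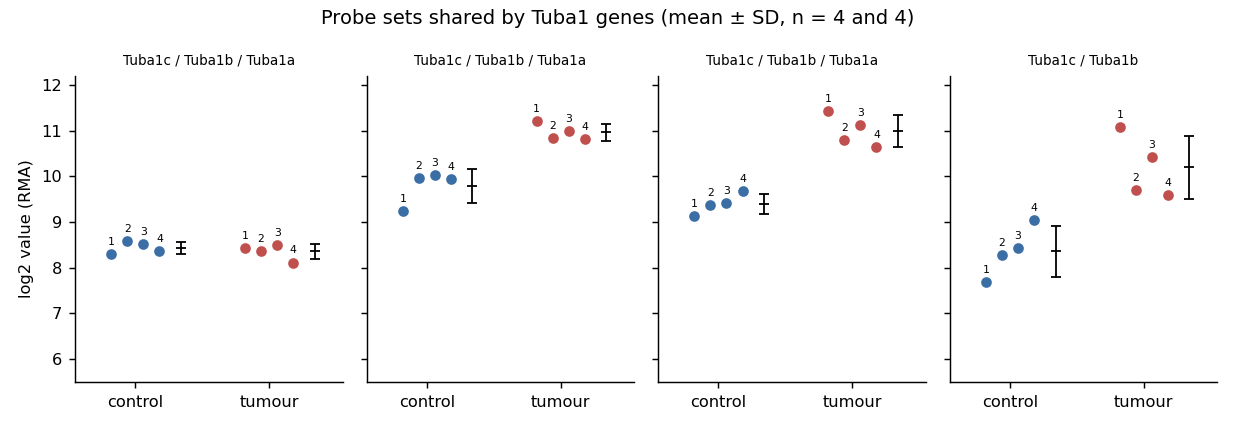
Log2 values of the 4 probe sets shared by Tuba1a, Tuba1b and Tuba1c, or by Tuba1b and Tuba1c, for 4 control livers (blue) and 4 tumours (red), with arrays numbered and bars giving the mean ± SD of 4 arrays. From left to right the log2 changes were -0.08, 1.17, 1.61 and 1.84, and the groups overlapped only in the first panel.

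Tubb4b, a beta tubulin of many tissues that is prominent in cilia, shared both of its probe sets with the unrelated gene Zfp646. The first read 8.32 to 8.79 in controls and 8.37 to 9.34 in tumours (log2 change 0.27, SE 0.20, limma adjusted p = 0.396 over all probe sets). The second read 8.30 to 9.12 and 8.64 to 9.49 (log2 change 0.32, SE 0.23, limma adjusted p = 0.386). Neither passed, and the groups overlapped on both.

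Within an array, the beta tubulin genes did not change in step. For each pair of genes of 1 family, the difference of the log2 values was taken on every array and compared between groups with a two-sided exact permutation test, for which 70 relabellings allow a p of 0.0286 at the smallest. With 7 pairs available, adjusted over the 7, all 4 pairs of Tubb2a or Tubb2b with Tubb5 or Tubb6 differed between groups at that smallest p (adjusted p = 0.040). The log2 change of Tubb2a was lower than that of Tubb5 by 3.00 (difference -3.00, 95% interval -4.18 to -1.82) and differed from that of Tubb6 by -2.47 (-3.37 to -1.57). The corresponding differences for Tubb2b were -1.84 (-2.81 to -0.88) against Tubb5 and -1.31 (-1.84 to -0.78) against Tubb6. These pairs share genes and are not independent. Tubb2b itself had a log2 change of 0.27, so its pairs largely restate the rises of Tubb5 and Tubb6.

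The neighbours Tubb2a and Tubb2b also changed unequally, by -1.16 (95% interval -1.86 to -0.45, exact permutation p = 0.0286, adjusted p = 0.040). This call was lost without tumour 1, 2 or 4 (adjusted p = 0.080 each time). Tubb5 and Tubb6 differed in their change by 0.54 (-0.07 to 1.14, exact permutation p = 0.0857, adjusted p = 0.10), and Tuba1a and Tuba4a by 0.73 (-0.46 to 1.91, exact permutation p = 0.20, adjusted p = 0.20). The intervals use the pooled spread of the per-array differences. They concern unequal change and not the abundance of 1 isotype against another.

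**Figure D3:**
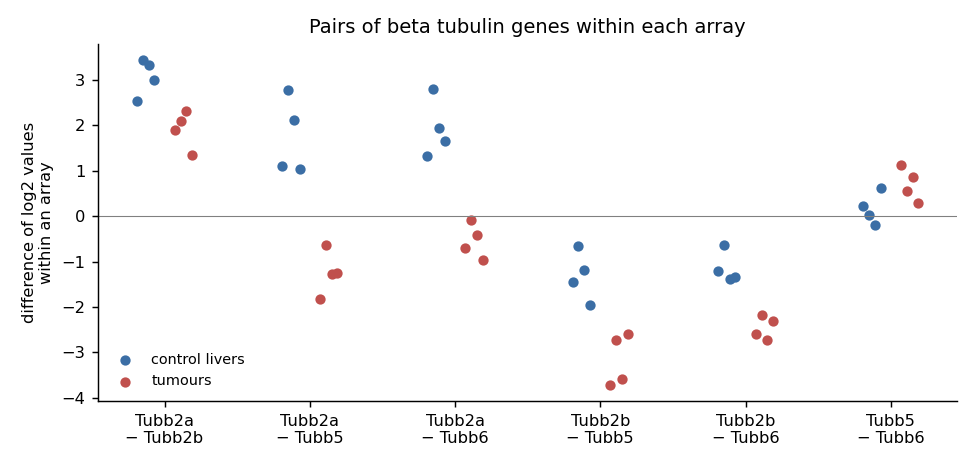
Difference of the log2 values of 2 beta tubulin genes on the same array, for 4 control livers (blue) and 4 tumours (red). For the 5 pairs that include Tubb2a or Tubb2b all tumours lay below all controls, while for Tubb5 minus Tubb6 the groups overlapped.

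The tumours differed among themselves in a similar way for several of these genes. Tubb5, Tuba4a, both Tubb4b probe sets and 3 of the shared Tuba1 probe sets were highest in tumour 1, followed by tumours 3, 2 and 4, that is 7 of the 14 probe sets named above, against 6.91% of all probe sets. The other 5 genes with a probe set of their own did not follow that order. Control liver 4 was the highest control for 6 of those 7 probe sets, a count not taken over all probe sets. The interquartile range of all values on an array ran the same way, from 2.42 in tumour 1 through 2.36 and 2.28 to 2.09 in tumour 4, with 2.25 for control liver 4, above its group (2.04 to 2.18). After quantile normalisation, which removes that difference, 6 of the 14 had the order, against 2188 of all 34760 probe sets. Tubb5 then read 10.07, 9.27, 9.82 and 9.20 in tumours 1 to 4. The 7 probe sets are not independent, since those for Tuba1 genes share symbols, as do both for Tubb4b. The order was picked after the values of these same probe sets were seen, so their higher share carries no weight. Neither the pattern nor the part of the array spread in it was tested.

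For each of the 7 genes, the gene outside the set with the highest Pearson correlation over the 8 arrays was Ints10 for Tubb6 (r = 0.999), AI597479 for Stmn1 (0.997), Eif3i for Tubb5 (0.997), Hivep1 for Tubb2a (0.986), Leng8 for Tuba4a (0.983), Mcam for Tuba1a (0.976) and Gm3086 for Tubb2b (0.975). The groups stand apart for Tubb5, Tubb6 and Stmn1, so these coefficients mostly restate the difference between groups, and each is the highest over all other genes. Eif3i, a subunit of a translation initiation factor, went from a log2 mean of 9.75 to 11.10, and Ints10, of the Integrator complex, from 7.33 to 8.16.

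Of 11 further tubulin genes, 2 were higher in tumours and none lower, with a median log2 change of 0.14. Over all genes 16.2% were higher and 12.7% lower, so the share of higher genes was near the background. Tube1, the epsilon tubulin of centrioles, rose 1.92-fold, from 6.15 ± 0.04 to 7.08 ± 0.27 (± SD over 4 arrays each; limma SE 0.13 on a log2 change of 0.94). Tuba8 rose 1.51-fold (log2 change 0.60, SE 0.12). The gamma tubulin genes Tubg1 and Tubg2, which seed microtubules, had log2 changes of 0.04 and 0.08. Tubb3, the beta tubulin known as a neuronal marker, read 5.10 to 5.74 in controls and 5.42 to 5.84 in tumours (log2 change 0.17). Tuba3b and Tubal3 had means of 4.52 and 5.26 in controls and 4.66 and 5.03 in tumours, at the level of Y-linked genes on an array where these are low (3.46 to 5.39), and are not shown to be above background.

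Tubulin must be folded before it pairs, and genes of the early folding machinery were mostly higher in tumours, against 16.2% of all genes. CCT, the chaperonin that folds actin and tubulin, had 8 of 8 subunits higher, with a median log2 change of 1.46 and values from 0.46 for Tcp1 to 1.62. Cct5, Cct3 and Cct7 rose 3.07-fold, 3.06-fold and 2.99-fold (log2 SE 0.10, 0.17 and 0.13). Of the prefoldin subunits, which hand nascent chains to CCT, 5 of 6 were higher and none lower, with a median of 0.76. Pfdn4 rose 3.61-fold (log2 change 1.85, SE 0.16), Vbp1 2.47-fold and Pfdn1 1.75-fold, while Pfdn5 had a log2 change of -0.0026.

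The tubulin folding cofactors, which act after CCT to join alpha to beta subunits, gave 1 of 7 higher and 2 lower, with a median of 0.0067. The shares over all genes were 16.2% higher and 12.7% lower. Tbcel, a relative of cofactor E that destabilises tubulin, fell by 0.92 on the log2 scale (SE 0.19). Tbca, which holds beta tubulin, had a log2 change of 0.29 (SE 0.10, limma adjusted p = 0.0463), and Tbce, cofactor E, of -0.26 (SE 0.08, limma adjusted p = 0.0409). Tbca was no longer called after quantile normalisation (limma adjusted p = 0.0873) and without any of 6 single arrays (control livers 2, 3 and 4, tumours 1, 3 and 4), nor with every probe set tested (0.0674). Tbce was no longer called with an intensity trend and robust variance (limma adjusted p = 0.0860) and without any 1 array other than tumour 2, nor with every probe set tested (0.0571).

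Of 15 measured subunits of the gamma-tubulin ring and of augmin, which start new microtubules, 9 were higher and none lower, with a median of 0.43. The augmin genes Haus6 and Haus1 rose 5.43-fold and 3.86-fold (log2 change 2.44, SE 0.15, and 1.95, SE 0.18), and Tubgcp5 of the ring rose 1.92-fold (0.94, SE 0.12). Of 26 enzymes that modify tubulin, 5 were higher and 1 lower, with a median of -0.05, a share of higher genes near the 16.2% of all genes. Agtpbp1, which trims glutamate chains from tubulin, rose 2.50-fold (1.32, SE 0.11), and the ligase-family gene Ttll4, which adds them, rose 2.30-fold (1.20, SE 0.12). Ttll12 rose by 0.64 on the log2 scale (SE 0.18), a call lost without tumour 1 (limma adjusted p = 0.0566). Agbl3, another of the trimming enzymes, fell by 0.56 (SE 0.12). The number higher was 2 without tumour 1 and 3 without control liver 1 or tumour 3.

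Among 24 proteins that bind microtubules or track their ends, 7 were higher and 2 lower, with a median of 0.13. The background for this list and the next is 16.2% of all genes higher and 12.7% lower. Of the 3 end-binding genes, 2 rose and 1 fell. Mapre2 rose 4.40-fold, from 7.05 ± 0.44 to 9.19 ± 0.44 (± SD over 4 arrays each; limma SE 0.25 on a log2 change of 2.14), while Mapre3 fell by 1.06 (SE 0.11), from 7.30 ± 0.14 to 6.24 ± 0.16. Mapre1, named here to complete the family, rose 2.04-fold (log2 change 1.03, SE 0.10). Ckap5, a polymerase of microtubule ends, rose 2.27-fold (1.18, SE 0.13). Of 11 severing and depolymerising proteins, 4 were higher and 1 lower, with a median of 0.31. The mitotic kinesins Kif18a and Kif2c, which shorten microtubules, had log2 changes of 3.46 (SE 0.26) and 2.76 (SE 0.22), and the severing-enzyme relative Fignl1, which acts in DNA repair, of 3.38 (SE 0.18). The control means of Kif18a and Fignl1, 5.12 and 4.87, lay at the low end of the scale, so their folds are limits. Kif2c read 5.33 to 6.02 in controls, in part at that low end, so its fold may be a limit too. Spast, the severing enzyme spastin, fell by 0.50 (SE 0.09).

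**Figure D4:**
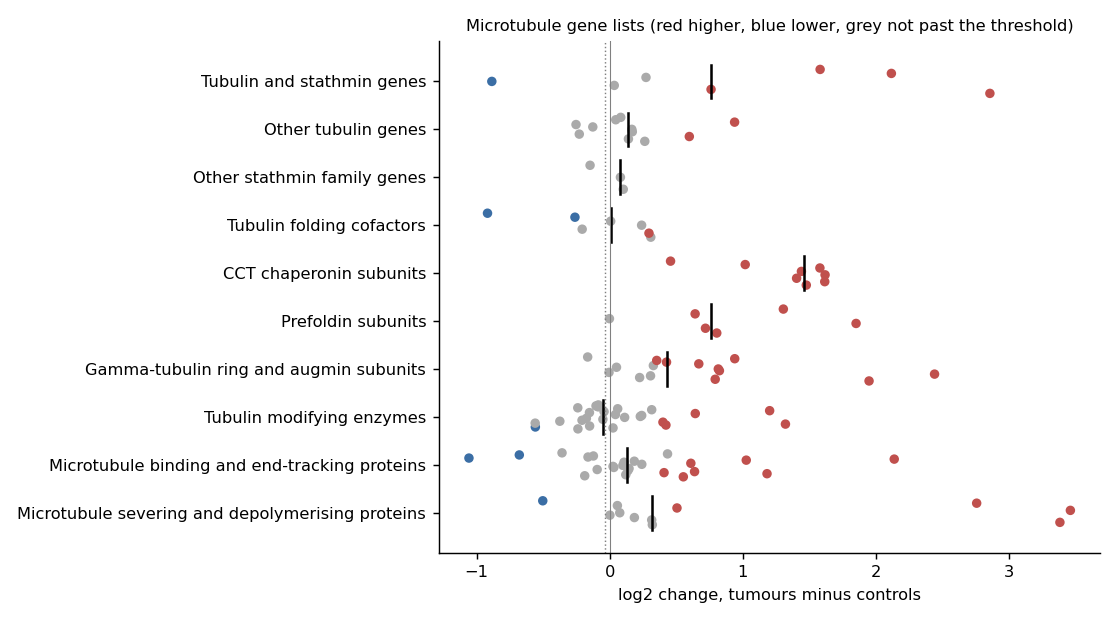
Log2 change (tumours minus controls) of each measured gene of 10 microtubule gene lists, with red for genes past the limma threshold and higher, blue for past it and lower, and grey for neither; black bars are list medians and the dotted line is the median of all genes, -0.035. The 8 CCT subunits all lie to the right, at 0.46 to 1.62, while the tubulin and stathmin genes spread from -0.89 to 2.86.

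Markers of cell types were read on the same arrays, on which 16.2% of all genes were higher in tumours and 12.7% lower. All 9 measured markers of dividing cells were higher in tumours. Their mean log2 values were 5.51 to 6.08 per control array and 8.97 to 9.65 per tumour array (sums of log2 values 49.6 to 54.7 and 80.8 to 86.9). At the low end of the scale lay, for example, the control mean of Bub1, 4.82, and Top2a in control liver 4, 4.93. All 6 measured hepatocyte markers were lower by a median of 0.53 (log2 change -0.53) and still read 11.32 to 11.72 per tumour array against 12.05 to 12.28 in controls. Of 8 neuronal markers none were higher and Syt1 was lower (sums of log2 values 44.6 to 45.4 in controls and 41.6 to 43.9 in tumours). Elavl4, Nefl and Nefm lay under 5 on every array. Of 11 stellate cell and fibroblast markers 1 was higher and 3 lower (sums of log2 values 79.1 to 80.4 and 74.5 to 79.7). The 8 endothelial markers gave 1 higher and 3 lower (54.7 to 60.1 and 54.9 to 58.1). For 8 macrophage markers the counts were 2 and 2 (54.4 to 59.9 and 55.8 to 58.8), and for 5 bile duct markers 1 and 1 (28.4 to 28.9 and 28.3 to 30.2). None of 7 lymphocyte markers and 4 platelet markers passed. The part of dividing cells or of any of these cell types in the tubulin changes was not tested.

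Control liver 3 stood apart in Xist, at 11.89 against 4.86 to 7.12 on the other arrays. Its Y-linked genes Eif2s3y and Uty read 3.46 and 3.87, against 7.66 to 9.37 on the other arrays. By these genes it reads as female and the others as male, so sex was not balanced between the groups. Without control liver 3 the log2 changes were 2.75 for Stmn1, 2.08 for Tubb5, 1.67 for Tubb6 and 0.84 for Tuba1a, all still past the threshold in limma. That of Tubb2a was -0.80 and did not pass (limma adjusted p = 0.104).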

How the data were processed

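Values were deposited by the authors as log2 expression per probe set, 34760 on each of 8 arrays. Per the submitters' processing notes they were made with RMA, which corrects background, normalises between arrays and summarises probes, and R 3.0.2; settings and genome build are not given in the sources used here. Array medians lay between 6.33 and 6.44, and the number of arrays limits precision.

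Of the probe sets, 21640 carried 1 gene symbol, 1321 several and 11799 none. The brightest single-symbol probe set stood for a gene, giving 19937 genes. Groups were compared with limma 3.58.1 (lmFit, eBayes; R 4.3.3), fitting the group difference alone. Because 3 genes lay only on shared probe sets, 7 of the 16 planned pairs could be compared, and the fit over all probe sets was added after this was seen. On simulated data over 19937 genes the fit recovered 88% of genes changed by 1 and 34% of those changed by 0.5 on the log2 scale. Far fewer genes were changed there, with 165 called against 5757 in the real data, and adjustment is then stricter. These shares therefore do not give the power of the comparison made here. Plots used matplotlib 3.10.9.

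Genes named from a list were up to 3 with the largest change past the threshold, the largest in the less frequent direction, or the largest change where none passed. The genes and lists were chosen with earlier results of these data known. List entries without a probe set of their own are not analysed here. Alternatives were array weights, blocking on the replicate number, quantile normalisation, median centring, an intensity trend together with robust variance, dropping the 33.3% of genes with the lowest means, averaging the probe sets of a gene, and leaving out each array.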

Additional observations from a re-analysis of the deposited data

Results flagged for a closer look

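Among 66 groups of 4 arrays, from 33 named genes in 2 groups each, 3 held an array far from the other 3, where chance flags about 1 in 20 groups. None concerned the 7 tubulin and stathmin genes with a probe set of their own; the shared probe sets were not checked. Tuba8 read 6.23 in control liver 4 against 6.54 to 6.59 in the other controls. Tbce read 8.54 in tumour 2 against 8.37 to 8.39 in the other tumours. Ttll12 read 6.27 in control liver 2 against 6.87 to 6.97 in the other controls.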

How the results depend on the processing

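The rises of Stmn1, Tubb5 and Tubb6 kept their direction and call under all 16 alternatives, with log2 changes of 2.70 to 3.10, 1.93 to 2.34 and 1.49 to 1.67. Not all alternatives could move these values. Each of the 7 genes had 1 probe set of its own, so averaging probe sets left the genes and their pairs as they were. The trend, the block, dropping low genes and testing every probe set could change the p-value but not the log2 change. Over the 7 genes, 92 of 112 alternative values kept direction and call, 14 lost the call and 6 changed sign, the last all for Tuba4a, which was never called (-0.041 after quantile normalisation, and -0.19 to 0.37 when single arrays were left out). The count of higher genes of the set was 3 to 4 without single arrays. The count of lower genes, which is Tubb2a alone, was 0 after median centring, 0 with an intensity trend and robust variance, and 0 to 1 without single arrays. With every probe set tested, the calls of Tubb2a (limma adjusted p = 0.0763), Tbca (0.0674) and Tbce (0.0571) were lost. Of 70 alternative values for pairs, 67 kept their call, and of 415 for pathway genes 395 did. Among the folding cofactors 0 to 2 were higher and 1 to 2 lower without single arrays; 0 were higher after quantile normalisation and with the replicate block, and 1 was lower with the trend and with the block. Among the modifying enzymes 2 to 7 were higher and 1 to 3 lower without single arrays, 3 were higher with the block, and 2 were lower after quantile normalisation. The cause of these shifts was not tested. The replicate numbers showed no pairing: deviations of same-numbered samples correlated at -0.057, 0.0048, 0.055 and -0.32 across genes, and 1 of 8 samples correlated best with its own number. With the replicate number as a block, 2859 genes were higher and 2148 lower, against 3225 and 2532 without it, and the calls of Tuba1a (limma adjusted p = 0.0605), Tbca (0.0766) and Tbce (0.114) were lost, with no other named gene changing its call. With every probe set tested, 4540 were higher and 3256 lower.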
